A study of Mus musculus with 16 samples.

Results

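The cytosolic ribosome of mouse cells is built from ribosomal RNA and a fixed set of proteins, named Rpl in the large subunit and Rps in the small subunit, with Rplp0, Rplp1 and Rplp2 forming the stalk that receives elongation factors. Most of these messenger RNAs begin with a run of pyrimidines and are held out of translation when nutrients are scarce, a control that acts on translation and need not show in transcript level. In the hypothalamus, where neurons sense fasting, several of these transcripts also serve as reference genes of PCR assays. The genes described here are those named Rpl or Rps followed by a number, Rplp0 to Rplp2, and Rpsa, without the ribosomal S6 kinases. The table held 84 probes for 66 such genes among 16593 named genes. A probe was kept when it lay above the table's median log2 intensity of 5.125 in at least 4 arrays, and the brightest kept probe stood for its gene, which left 59 of the 66 genes among 9530 kept genes.

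The study measured hypothalamic total RNA of male mice on Illumina bead arrays. It has 4 groups of 4 arrays: AgRP-/- mice fasted for 30 h, AgRP-/- mice fed ad libitum, AgRP+/- mice fasted for 30 h and AgRP+/- mice fed ad libitum. AgRP is agouti-related peptide, a feeding signal of arcuate neurons. All mice had a mixed strain background, and every control animal carried 1 inactive copy of the gene, so no wild type was among them. Whether the arrays hold RNA of separate animals is not stated, so p-values measure only the spread between these arrays, which may be technical. The tissue's own peptide transcripts were bright in every array, Oxt between 12.4 and 13.3, Avp between 11.7 and 12.9 and Hcrt between 11.6 and 12.8. The pituitary hormone transcripts Gh and Prl, averaged, stood apart in AgRP+/- fed 2 (7.56) and AgRP-/- fed 1 (5.65), against 4.335 to 4.917 in the other 14 arrays.

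The 59 kept genes were 29 of the large subunit, 22 of the small subunit, the stalk genes Rplp0 and Rplp1, 5 paralogs of subunit genes (Rpl3l, Rpl7l1, Rpl22l1, Rpl36al and Rps27l) and 1 gene that only the name rule brought in. That gene, Rps19bp1, encodes a nucleolar binding partner of Rps19 and is no ribosomal protein. The label therefore fits 53 genes strictly and 5 more as paralogs. The 7 genes that were not kept were Rpl14, Rpl17, Rpl39l, Rpl6, Rplp2, Rps23 and Rps23rg1, the last of which is also no ribosomal protein. Their probes averaged between 4.41 and 4.74, where signal cannot be separated from background. Rpl6 and Rps23rg1 lay above the table median in 1 array each and the other 5 in 0 arrays. Just inside the rule, Rpl22l1 was above it in 10 arrays, Rpsa in 11 and Rpl3l in 15, while the other 56 kept genes were above it in all 16.

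The promoters of the genes that the results below turn on are shown first, as annotated by RefSeq on GRCm38.p6. Rps2 and Rpl3l are the genes called with fasting, Rplp0 is the stalk protein used as a PCR reference, and Rps10, Rps27 and Rps21 have a pyrimidine start and varied closely with the other ribosomal protein genes. Each stretch holds 150 bases before the annotated start and 15 from it, 5′ to 3′ on the gene's own strand. Capitals mark the words CTTCCG and CGGAAG, the words TATAAA and TTTATA, and a C at the start followed by at least 4 pyrimidines. The stretches are chr17:24719913-24720077 on the plus strand for Rps2, chr17:24727676-24727840 on the plus strand for Rpl3l, chr5:115559317-115559481 on the plus strand for Rplp0, chr17:27635230-27635394 on the minus strand for Rps10, chr3:90213634-90213798 on the minus strand for Rps27 and chr2:180257229-180257393 on the plus strand for Rps21.
Rps2: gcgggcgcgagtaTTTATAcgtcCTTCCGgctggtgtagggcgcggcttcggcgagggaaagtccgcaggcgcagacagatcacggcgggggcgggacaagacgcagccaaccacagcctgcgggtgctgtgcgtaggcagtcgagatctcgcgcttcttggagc
Rpl3l: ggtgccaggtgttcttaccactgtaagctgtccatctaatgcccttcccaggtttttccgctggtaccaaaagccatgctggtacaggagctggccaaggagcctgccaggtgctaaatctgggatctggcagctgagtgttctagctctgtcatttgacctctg
Rplp0: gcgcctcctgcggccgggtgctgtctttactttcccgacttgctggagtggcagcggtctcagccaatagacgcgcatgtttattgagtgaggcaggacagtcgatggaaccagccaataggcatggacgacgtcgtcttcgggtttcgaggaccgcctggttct
Rps10: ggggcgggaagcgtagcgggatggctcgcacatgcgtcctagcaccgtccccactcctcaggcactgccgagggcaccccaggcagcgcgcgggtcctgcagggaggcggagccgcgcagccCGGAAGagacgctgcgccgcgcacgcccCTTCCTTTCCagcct
Rps27: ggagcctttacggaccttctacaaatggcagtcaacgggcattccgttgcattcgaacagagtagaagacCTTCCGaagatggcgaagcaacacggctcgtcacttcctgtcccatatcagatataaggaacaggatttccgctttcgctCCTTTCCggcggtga
Rps21: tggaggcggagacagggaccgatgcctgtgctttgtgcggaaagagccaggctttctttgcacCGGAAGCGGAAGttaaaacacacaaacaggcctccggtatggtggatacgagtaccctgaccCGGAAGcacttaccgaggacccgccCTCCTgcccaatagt
Rpl3l and Rps21 have 2 annotated starts each, and 1 of them is shown.

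Promoter windows of 250 bases before and 50 from the start were found for 51 of the 59 genes. CTTCCG or CGGAAG, the same word read on either strand and the core bound by ETS factors, stood in the windows of 36 of them (70.6%), against 33.2% of the windows of 7756 kept genes and 18.8% of those of all 27025 genes in the reference. TATAAA or TTTATA, the TATA word on either strand, stood in 6 (11.8%), against 9.22% of kept genes and 15.7% of all genes. The pyrimidine start, read on the gene's own strand only, was found in 9 (17.6%), against 2.93% of kept genes and 3.01% of all genes. Those 9 were Rpl28, Rpl35, Rpl35a, Rpl38, Rps6, Rps10, Rps15a, Rps21 and Rps27. A pyrimidine start needs the exact first base, so an annotated start that is off by a few bases hides it. The run in the stretches shown is 10 bases long in Rps10, 7 in Rps27 and 5 in Rps21, and Rps2, Rpl3l and Rplp0 have none at the annotated start. The paralog Rpl3l held none of the 3 patterns in its window, unlike Rps2, in which a TTTATA and a CTTCCG stand close together upstream.

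On these arrays many ribosomal protein probes were among the brightest. Of the 59 genes, 38 averaged over 12 on the log2 scale, 11 lay within 1 of the highest value in the table, and 7 averaged under 8. Rpl23, Rplp1 and Rpl41 had the brightest probes, at means of 14.5, 14.5 and 14.4. The probes of Rpsa, Rpl22l1 and Rpl3l were the dimmest, at 5.25, 5.27 and 5.76. Intensity depends on the probe, so this order is not an order of transcript abundance, and a probe near the top of the scale can understate a change. The median SD within groups was 0.11 for the 59 genes, against 0.17 for all kept genes, which were not matched for intensity. The largest was 0.65, of Rps3a1, followed by 0.33 of Rpl22l1.

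Whether a 30 h fast changed ribosomal protein transcripts was read first with both genotypes averaged. Of 59 genes, 2 were called at an adjusted p under 0.05 in limma, Rpl3l and Rps2, both higher in fasted mice, while 4.31% of all 9530 kept genes were called (411 genes). The share of members called, 2 of 59, was thus near the background. At an unadjusted p under 0.05 there were 16 members (27.1%), against 20.8% of all genes. The members' median change was -0.037 on the log2 scale, against -0.0032 for all genes, and 39 of 59 (66.1%) were below 0, against 50.8% of all genes. Changes were small: 55 of 59 (93.2%) lay within 0.2 of no change, against 81.7% of all genes. The median absolute change was 0.071 for the members and 0.091 for all genes, with median SEs of 0.056 and 0.085. In bulk tissue, fewer cells of a type and less RNA per cell cannot be told apart.

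**Figure D1:**
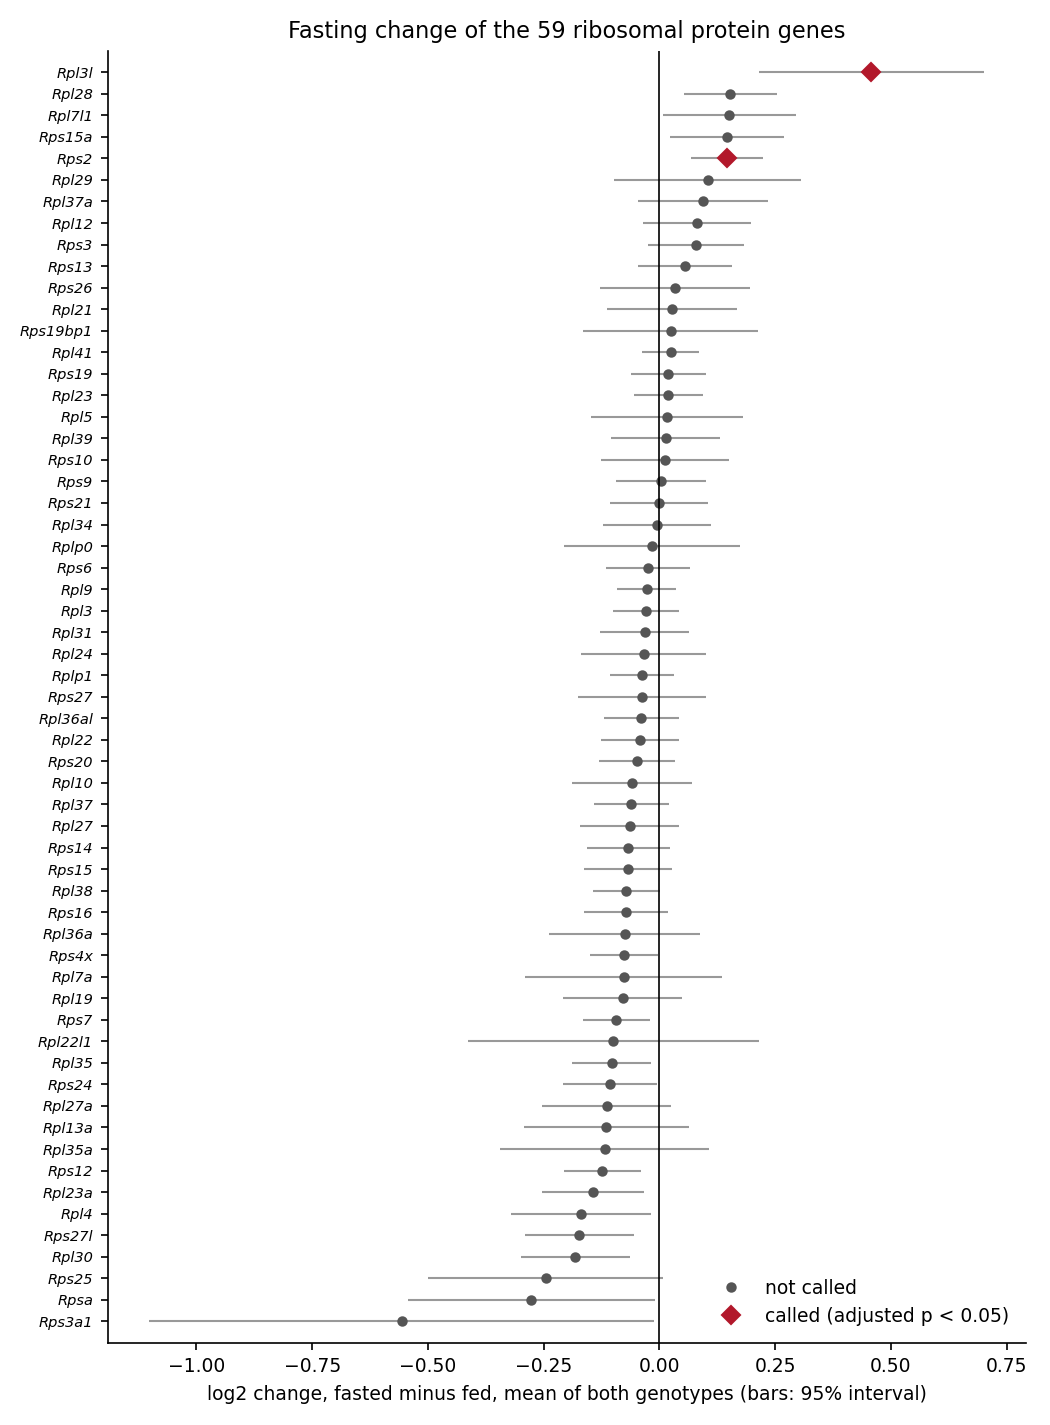
Change of each of the 59 ribosomal protein genes with fasting on the horizontal axis (log2, fasted minus fed, mean of both genotypes), with bars for the 95% interval of the limma fit. Red diamonds mark the 2 called genes, Rpl3l and Rps2, which lie above 0, while 39 of the 59 points lie below 0.

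Rpl3l, the paralog of Rpl3 known from heart and skeletal muscle, was measured by a dim probe (ILMN_2649810). Its log2 intensities were 5.87, 5.81, 6.42 and 6.05 in fasted AgRP-/- mice, against 5.16, 5.65, 5.12 and 5.14 in fed AgRP-/- mice. They were 6.02, 6.16, 6.03 and 5.57 in fasted AgRP+/- mice, against 5.69, 5.87, 5.89 and 5.77 in fed AgRP+/- mice. Fasted and fed AgRP-/- arrays did not overlap, 3 of the 4 fed ones lay near the table median, and the AgRP+/- groups overlapped. Intensities so low cannot be separated from background here, so the size of the change is uncertain and no fold is given. In AgRP-/- mice the change was 0.77 (SE 0.16, limma adjusted p = 0.0413), the only member called in a contrast in which 0.42% of all genes were called. In AgRP+/- mice it was 0.14 (SE 0.16, adjusted p = 0.785), and averaged over genotypes 0.46 (SE 0.12, adjusted p = 0.033). The difference between the genotypes' responses, 0.63 (SE 0.23), did not pass the limma interaction test (adjusted p = 0.999). The call in AgRP-/- mice held when AgRP-/- fed 2, AgRP+/- fed 3 or any 1 of the AgRP+/- fasted arrays was left out and was lost without each of the other 10 arrays, where the change ranged from 0.64 to 0.90 over all 16 omissions. The averaged call held without AgRP-/- fasted 1 or 2, AgRP-/- fed 2, AgRP+/- fasted 4, or AgRP+/- fed 2 or 3, and was lost without each of the other 10 (change 0.39 to 0.52 over the 16 omissions).

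Rps2, a small-subunit protein at the channel where messenger RNA enters, had a bright probe (ILMN_2946616). It read 13.35, 13.37, 13.25 and 13.28 in fasted AgRP-/- mice, against 13.09, 13.15, 13.01 and 13.12 in fed AgRP-/- mice. The values were 13.19, 13.27, 13.28 and 13.33 in fasted AgRP+/- mice, against 13.09, 13.17, 13.27 and 13.25 in fed AgRP+/- mice. The AgRP-/- groups did not overlap, and the AgRP+/- groups did. Averaged over genotypes it rose by 0.15 (SE 0.037, a 1.11-fold intensity, limma adjusted p = 0.0323). Within genotypes the change was 0.22 in AgRP-/- mice (SE 0.052, adjusted p = 0.069) and 0.07 in AgRP+/- mice (SE 0.052, adjusted p = 0.636), and neither passed. The interaction was 0.15 (adjusted p = 0.999). The averaged call was lost without AgRP-/- fasted 1 or 2, AgRP-/- fed 1 or 3, AgRP+/- fasted 2 or AgRP+/- fed 1, with a change between 0.13 and 0.16 over the 16 omissions. Members that were not called also lacked overlap. Rpl35 (13.17 to 13.33 fasted, 13.34 to 13.49 fed) and Rps4x (13.18 to 13.32, 13.37 to 13.43) were lower in fasted AgRP-/- mice. Rps25 (10.91 to 11.67, 11.71 to 12.01) and, narrowly, Rps7 were lower in fasted AgRP+/- mice. How often groups of other genes lacked overlap was not counted.

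Transcripts of midbrain dopamine neurons, a tissue next to the hypothalamus, differed with fasting in the same arrays. Of 8 such markers 6 were kept, all 6 were above 0 and 4 were called (Slc6a3, Chrna6, Th and Lmx1a), with a median change of 0.65. The mean log2 level of the 6 ran from 7.34 to 7.55 in fasted AgRP-/- mice against 5.89 to 6.79 in fed AgRP-/- mice, and from 6.45 to 7.57 in fasted AgRP+/- mice against 6.20 to 6.76 in fed AgRP+/- mice. The Actb probe difference (the dimmest kept probe of Actb minus its brightest), a possible sign of RNA or amplification quality, ran from -5.02 to -4.03 in fasted AgRP-/- mice against -6.39 to -4.68 in fed AgRP-/- mice, and from -5.61 to -4.47 in fasted AgRP+/- mice against -6.19 to -5.27 in fed AgRP+/- mice. With a dopamine covariate (Slc6a3, Chrna6 and Th averaged) in the fit, Rpl3l changed by 0.53 (adjusted p = 0.217) and Rps2 by 0.22 (adjusted p = 0.0734), averaged over genotypes. With the Actb difference as a covariate they changed by 0.37 (adjusted p = 0.266) and 0.10 (adjusted p = 0.325). In AgRP-/- mice alone Rpl3l changed by 0.86 with the dopamine covariate (adjusted p = 0.288) and by 0.69 with the Actb difference (adjusted p = 0.129). Without AgRP+/- fed 2 and AgRP-/- fed 1, the arrays with pituitary transcripts, Rpl3l and Rps2 changed by 0.45 (adjusted p = 0.0681) and 0.14 (adjusted p = 0.0711) averaged over genotypes, and Rpl3l by 0.74 in AgRP-/- mice (adjusted p = 0.125). Over all 13662 kept probes, the averaged calls numbered 572 with no covariate, 33 with the dopamine covariate and 176 with the Actb difference. In AgRP-/- mice alone those counts were 53, 1 and 83. Without the arrays with pituitary transcripts they were 440 averaged and 39 in AgRP-/- mice. The part of the midbrain transcripts and of the Actb difference in the calls was not tested beyond these fits.

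**Figure D2:**
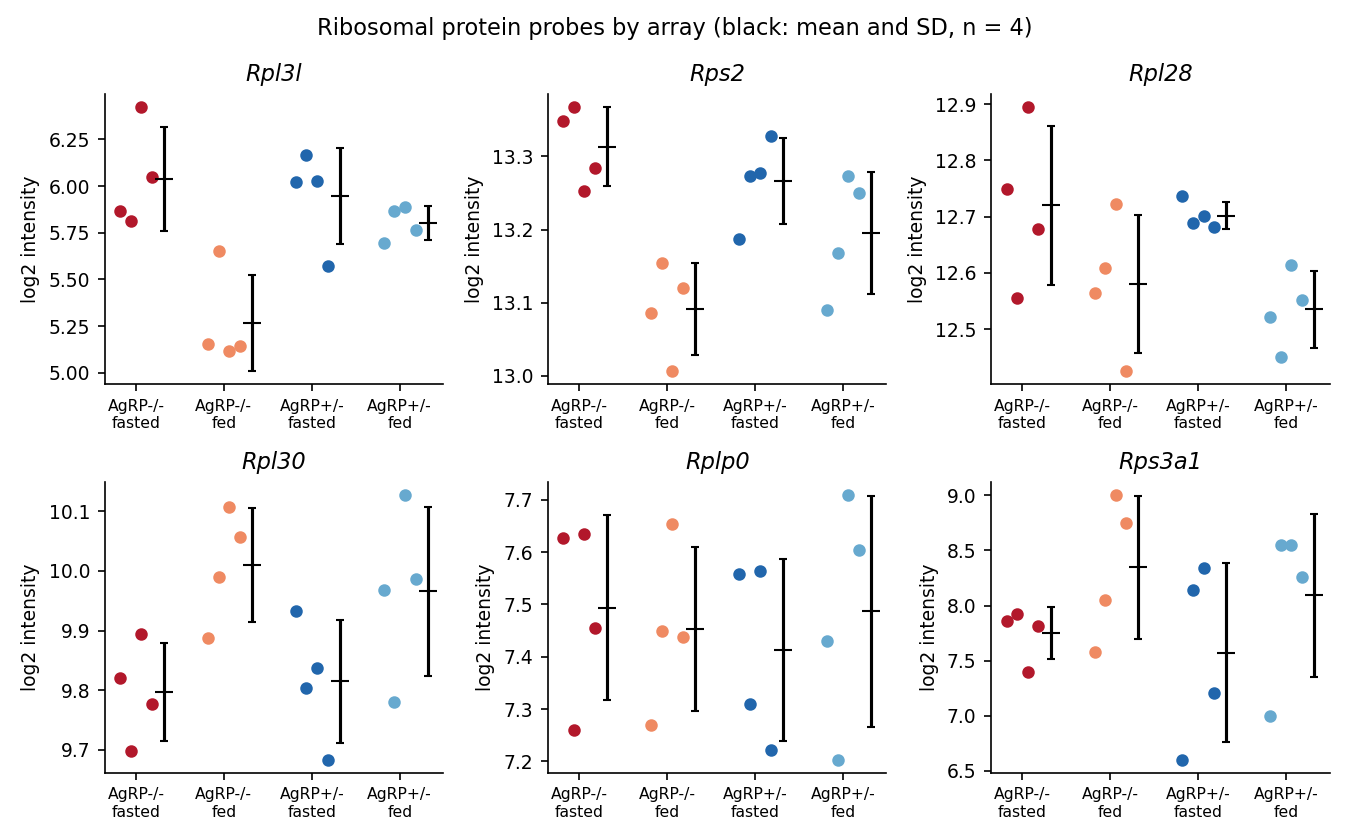
Log2 intensity (vertical axis, a different range in each panel) of 6 ribosomal protein genes in every array, with the mean and SD of each group in black (n = 4). Fasted and fed AgRP-/- arrays do not overlap for Rpl3l and Rps2, while Rplp0 overlaps in both genotypes and Rps3a1 has the widest spread. Rpl35 and Rps4x, which are not shown and were not called, do not overlap in AgRP-/- mice either, and are lower in fasted arrays.

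Among the 29 large-subunit genes, none was called, 20 lay below 0 and their median change with fasting was -0.043, averaged over genotypes. Of all genes 4.31% were called and 50.8% lay below 0, so the absence of a call among 29 is near that share. Rpl28, a large-subunit protein absent from bacterial ribosomes, had the highest value. It read 12.75, 12.56, 12.90 and 12.68 in fasted AgRP-/- mice, against 12.56, 12.61, 12.72 and 12.43 in fed AgRP-/- mice, and 12.74, 12.69, 12.70 and 12.68 in fasted AgRP+/- mice, against 12.52, 12.45, 12.61 and 12.55 in fed AgRP+/- mice. Only the AgRP+/- groups did not overlap, and the averaged change of 0.15 (SE 0.048) had a limma adjusted p of 0.0781. Rpl30, which lies at the interface of the subunits, had the lowest value, -0.18 (SE 0.056, adjusted p = 0.0749). Its arrays read 9.82, 9.70, 9.89 and 9.78 in fasted AgRP-/- mice, against 9.89, 9.99, 10.11 and 10.06 in fed AgRP-/- mice, with 9.93, 9.80, 9.84 and 9.68 in fasted AgRP+/- mice, against 9.97, 9.78, 10.13 and 9.99 in fed AgRP+/- mice. The AgRP-/- groups overlapped by 1 array at their edges, and the AgRP+/- groups overlapped more widely. Rpl4, which lines the tunnel of the nascent chain, averaged a change of -0.17 (SE 0.072, adjusted p = 0.19), and Rpl23a, a protein at the tunnel's exit, -0.14 (SE 0.053, adjusted p = 0.13).

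Among the 22 small-subunit genes Rps2 was the only one called, 14 lay below 0 and the median change was -0.043. Of all genes 4.31% were called, a share near 1 of 22, and 50.8% lay below 0. Rps3a1, a protein of the subunit's platform, had the lowest value and by far the widest spread. It read 7.86, 7.92, 7.40 and 7.82 in fasted AgRP-/- mice, against 7.58, 8.05, 9.0 and 8.75 in fed AgRP-/- mice, and 6.60, 8.14, 8.34 and 7.21 in fasted AgRP+/- mice, against 7.0, 8.55, 8.55 and 8.26 in fed AgRP+/- mice. Fasted and fed arrays overlapped in both genotypes, and the averaged change of -0.56 (SE 0.26) did not pass (limma adjusted p = 0.237). Rpsa, which also serves as a laminin receptor, had a change of -0.28 (adjusted p = 0.229) on a probe near the table median. Rps25, needed for initiation at some viral internal entry sites, had -0.25 (adjusted p = 0.261), with 10.91 in AgRP+/- fasted 4 as its lowest array and 12.03 in AgRP-/- fasted 1 as its highest. Rps15a, a core protein of the subunit shared with bacteria, had 0.15 (adjusted p = 0.161).

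Neither stalk gene was called with fasting averaged over genotypes, where 4.31% of all genes were. Rplp0, the base of the stalk, read 7.63, 7.26, 7.63 and 7.45 in fasted AgRP-/- mice, against 7.27, 7.45, 7.65 and 7.44 in fed AgRP-/- mice, and 7.56, 7.31, 7.56 and 7.22 in fasted AgRP+/- mice, against 7.43, 7.20, 7.71 and 7.60 in fed AgRP+/- mice. All groups overlapped, and the averaged fasting change was -0.016 (95% interval -0.21 to 0.17). Rplp1, which binds to Rplp0, changed by -0.037 (95% interval -0.11 to 0.032) on a probe near the top of the scale. Of 9 ribosomal protein genes in common use as PCR references, Rps18, Rpl32 and Rps29 had no probe under those names. The other 6 were kept: Rplp0, Rpl4, Rpl13a, Rpl19, Rpl27 and Rps16. None was called with fasting, against 4.31% of all genes, and 1, Rpl4, had an unadjusted limma p under 0.05, against 20.8% of all genes. For 6 genes these counts are near the shares over all genes. All 6 averaged changes were below 0, from -0.17 to -0.016, against 50.8% of all genes below 0. Their median was -0.076, against -0.037 for all 59 members. That direction is relative to arrays whose intensity distributions had been made nearly equal.

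The paralogs did not follow 1 direction. Besides Rpl3l, Rps27l, a paralog of Rps27 known as a p53 target, had an averaged fasting change of -0.17 (SE 0.057, limma adjusted p = 0.0899). It read 10.87, 10.92, 10.99 and 10.79 in fasted AgRP-/- mice, against 10.96, 11.10, 11.28 and 10.96 in fed AgRP-/- mice, and 11.22, 10.92, 11.10 and 10.99 in fasted AgRP+/- mice, against 11.24, 11.08, 11.26 and 11.31 in fed AgRP+/- mice. Fasted and fed arrays overlapped in both genotypes. Rpl7l1, a paralog of Rpl7 linked to ribosome assembly, had 0.15 (adjusted p = 0.224). Rpl36al, which resembles Rpl36a, had -0.039 (adjusted p = 0.609), and Rpl22l1, a paralog of Rpl22, had -0.10 (adjusted p = 0.753) on a probe near the table median.

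Within single genotypes Rpl3l was the only member called. In AgRP-/- mice 7 of 59 members (11.9%) had an unadjusted p under 0.05 with fasting, against 13.5% of all genes, and the median change was -0.050, against -0.0065. In AgRP+/- mice 0 members were called in limma, where 0.797% of all genes were, 4 (6.78%) had an unadjusted p under 0.05, against 11.8% of all genes, and the median was -0.033, against -0.0015. Members below 0 numbered 40 (67.8%) in AgRP-/- mice and 39 (66.1%) in AgRP+/- mice, against 51.6% and 50.5% of all genes. In AgRP-/- mice the largest changes after Rpl3l were -0.59 for Rps3a1 and -0.28 for Rpsa. In AgRP+/- mice they were -0.52 for Rps3a1 and -0.40 for Rps25, neither called.

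Loss of AgRP was compared within each feeding state. In fed mice 0 members were called, as were 0 of all genes (0%), in fasted mice 0 members and 0.0105% of all genes, and averaged over feeding states 0 members and 0.0315% of all genes. At an unadjusted p under 0.05, limma gave 2, 2 and 4 members in those 3 comparisons (3.39%, 3.39% and 6.78%), against 4.29%, 7.14% and 8.93% of all genes. The median difference, AgRP-/- minus AgRP+/-, was -0.0010 in fed mice, against -0.0028 for all genes, and -0.0092 in fasted mice, against -0.012. The largest averaged differences were -0.25 for Rpsa (adjusted p = 0.595), 0.22 for Rps3a1 (adjusted p = 0.858) and -0.22 for Rpl3l (adjusted p = 0.603). In fed mice alone Rpl3l differed by -0.54 (SE 0.16, limma adjusted p = 0.999). Averaged over feeding states, Rpl39, a small protein of the exit tunnel, had 0.17 (SE 0.057, adjusted p = 0.429). It read 12.89, 12.64, 13.03 and 12.78 in fasted AgRP-/- mice, against 12.55, 12.79, 12.64 and 12.46 in fasted AgRP+/- mice, and 12.69, 12.78, 12.90 and 12.70 in fed AgRP-/- mice, against 12.57, 12.65, 12.77 and 12.61 in fed AgRP+/- mice. The genotypes overlapped in both feeding states. Rpl5, which brings in a small ribosomal RNA, had an averaged difference of 0.17 (adjusted p = 0.57) and Rps27l 1 of -0.16 (adjusted p = 0.471). The interaction called 0 members and 0% of all genes, with 1 member, Rpl3l (1.69%), at an unadjusted p under 0.05, against 2.64% of all genes, and a median of -0.012, against -0.0085. Rps4x, an X-linked small-subunit gene, had -0.14 (SE 0.050, adjusted p = 0.658) in fasted mice, and of the 4 X-linked members (Rpl10, Rpl36a, Rpl39 and Rps4x) none was called in any comparison.

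For 10 members more than 1 probe was kept, and the probes did not always give the same value. The bright Rpl31 probe had an averaged fasting change of -0.032 (SE 0.046, limma adjusted p = 0.742) and the dim one -0.20 (SE 0.058, adjusted p = 0.0571), a gap of 0.17. The dim Rpl31 probe read 9.60, 9.47, 9.64 and 9.62 in fasted AgRP-/- mice, against 9.77, 9.72, 9.87 and 9.72 in fed AgRP-/- mice, without overlap, and 9.59, 9.48, 9.62 and 9.58 in fasted AgRP+/- mice, against 9.59, 9.64, 9.94 and 9.93 in fed AgRP+/- mice. The gap was also 0.17 between the probes of Rpl7l1 and of Rps19, whose dimmer probes averaged 5.67 and 5.25. It was smallest, 0.0068, for Rps24. Probe sequences were not used here, and many ribosomal protein genes have near-identical processed copies, so signal from a gene and from its copies cannot be told apart.

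The members moved together between arrays rather than between groups. As a joint measure, each gene's mean over the 16 arrays was taken off and the 59 deviations of an array were averaged. The value was 0.016, -0.068, 0.047 and -0.076 in fasted AgRP-/- mice, against -0.037, 0.047, 0.086 and -0.038 in fed AgRP-/- mice. It was 0.014, 0.026, 0.051 and -0.154 in fasted AgRP+/- mice, against -0.025, -0.071, 0.120 and 0.063 in fed AgRP+/- mice. Group means were -0.020 ± 0.061 in fasted and 0.014 ± 0.062 in fed AgRP-/- mice, and -0.015 ± 0.094 in fasted and 0.022 ± 0.086 in fed AgRP+/- mice (SD, n = 4 each), so the groups overlapped widely. In AgRP+/- fasted 4 only 10 of the 59 genes stood above their own mean, and in AgRP+/- fed 3 as many as 50 did.

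**Figure D3:**
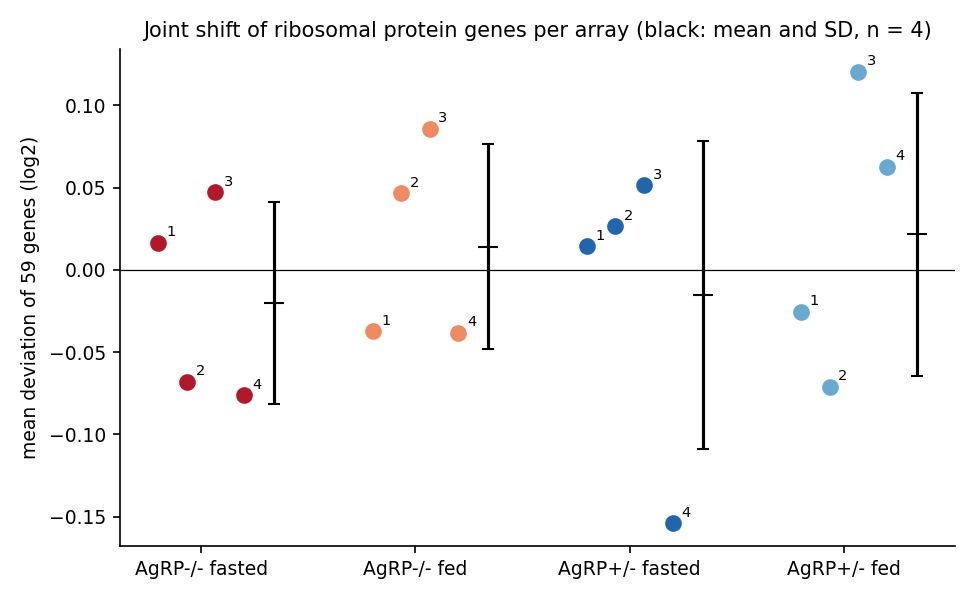
Mean deviation of the 59 ribosomal protein genes from their own means over 16 arrays (log2, vertical axis), 1 point per array with its replicate number, and the mean and SD of each group in black (n = 4). The points spread from -0.154 in AgRP+/- fasted 4 to 0.120 in AgRP+/- fed 3, and all 4 groups overlap.

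With group means removed, the median Pearson correlation over 1711 pairs of members was 0.363 across the 16 arrays, and 82.2% of pairs were above 0. Of the 59 genes, 39 (66.1%) correlated above 0.5 with the mean of the other members, against 16.01% of 9471 other genes with the mean of all members. The medians were 0.620 for the members and 0.056 for the other genes. Without AgRP+/- fasted 4 and AgRP+/- fed 3, the farthest arrays, 34 members (57.6%) and 12.04% of other genes were above 0.5, and the pairwise median was 0.313. These points share the 16 RNA samples, the labelling and the common normalization, so they are given as a description.

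The genes closest to the rest were Rps26 (r = 0.898), a protein of the channel where messenger RNA leaves, Rps10 (0.884), Rpl29 (0.864), Rpl34 (0.855), Rpl27 (0.852) and Rplp0 (0.836). Rps27 (0.830) and Rps21 (0.820), whose promoters are shown above with that of Rps10, followed. At the other end Rps4x (-0.370), Rpl22l1 (-0.327), Rpl22 (-0.188) and Rps2 (-0.036) ran below 0. Rps2, 1 of the 2 genes called with fasting, was thus not among those that moved with the rest, and the other, Rpl3l, stood at 0.509, falling to 0.343 without the 2 farthest arrays. In AgRP+/- fasted 4, Rps26 read 12.17, against 12.53 to 12.79 in the other fasted AgRP+/- arrays, while Rps2 read 13.33, its highest of that group.

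**Figure D4:**
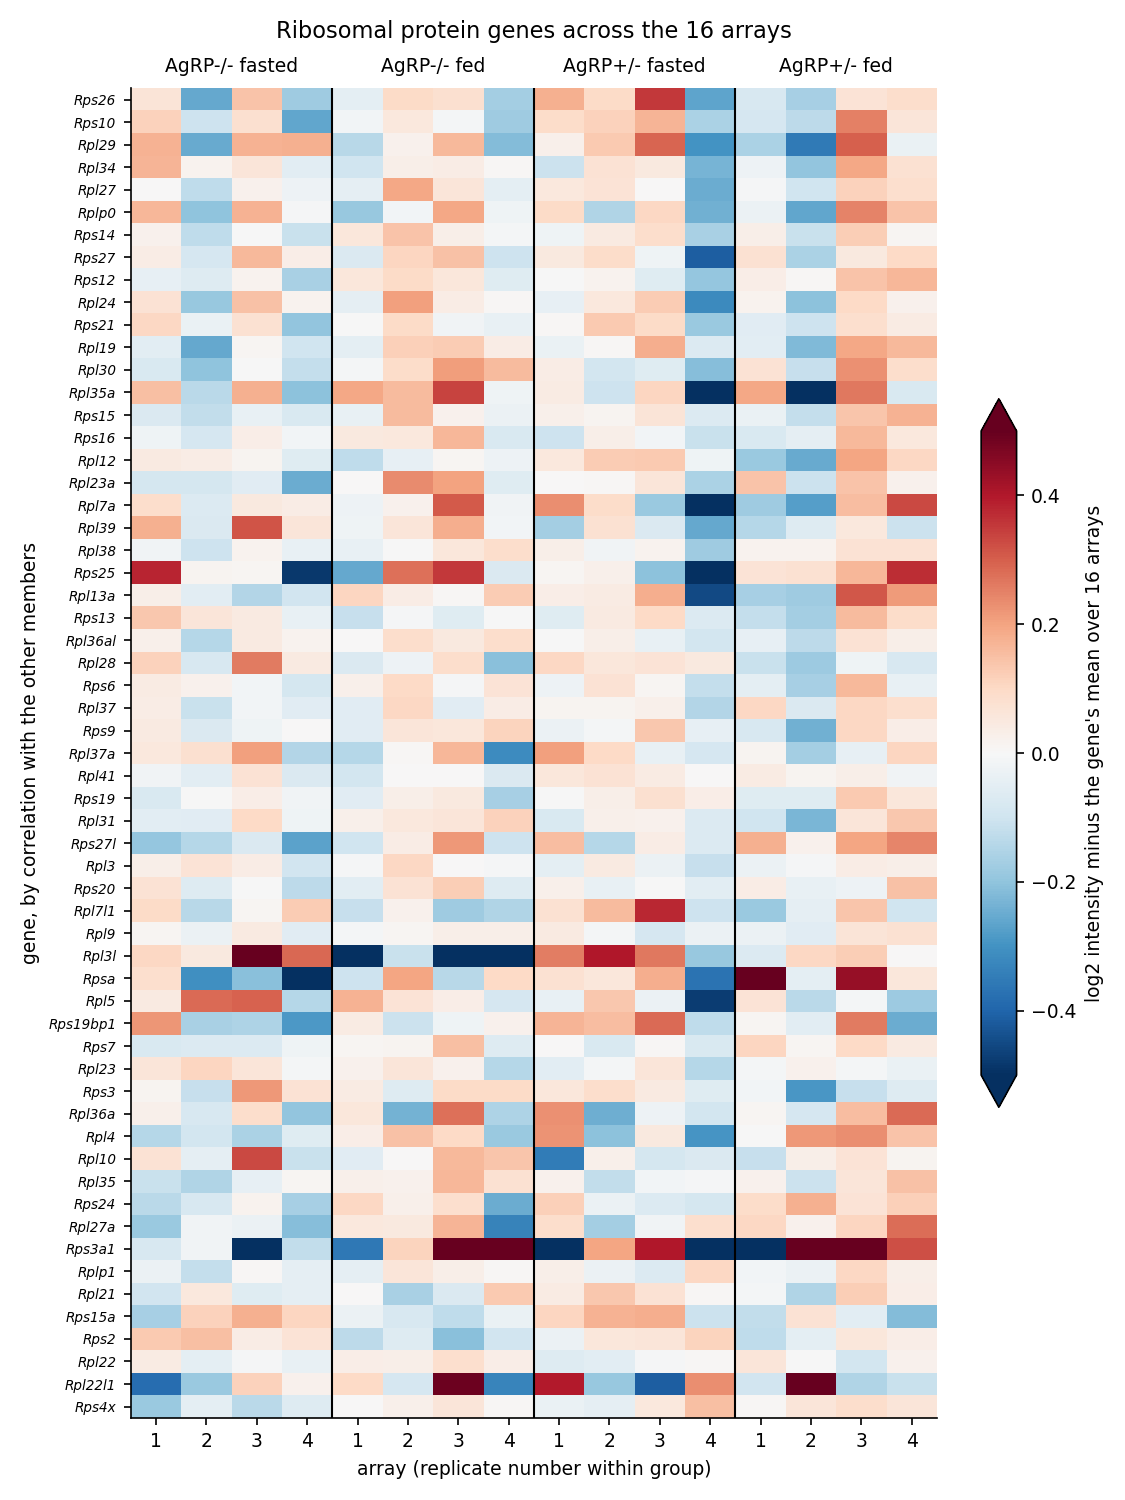
Log2 intensity of each of the 59 ribosomal protein genes minus its own mean over 16 arrays (colour, cut at 0.5 either way), with arrays by group along the horizontal axis and genes ordered by correlation with the other members. Columns AgRP+/- fasted 4 (blue) and AgRP+/- fed 3 (red) run through most rows. At the foot, Rps2, Rpl22, Rpl22l1 and Rps4x do not follow the blue column, and of these Rpl22 and Rpl22l1 do not follow the red one.

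Outside the list, the genes most like the members' mean over the 16 arrays were Psmb10, an immunoproteasome subunit (r = 0.949), Edf1, a factor that binds colliding ribosomes (0.932), and Mrpl13 of the mitochondrial ribosome (0.932). Those most like Rplp0 were Serf2 (0.968), Chchd10 (0.941) and Aamdc (0.929). With group means removed, the joint measure correlated with the Actb probe difference at 0.122 (0.479 without AgRP-/- fed 3 and AgRP-/- fed 4). Its correlation with the dopamine transcripts was 0.124 (-0.209 without AgRP-/- fed 2 and AgRP+/- fasted 4). With the pituitary transcripts Gh and Prl it was -0.449 (-0.188 without AgRP+/- fed 2 and AgRP-/- fed 1, the arrays highest in them). The 2 arrays left out thus differed between the 3 measures. These values moved with their farthest arrays, and their part in the joint shift was not tested.

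**Figure D5:**
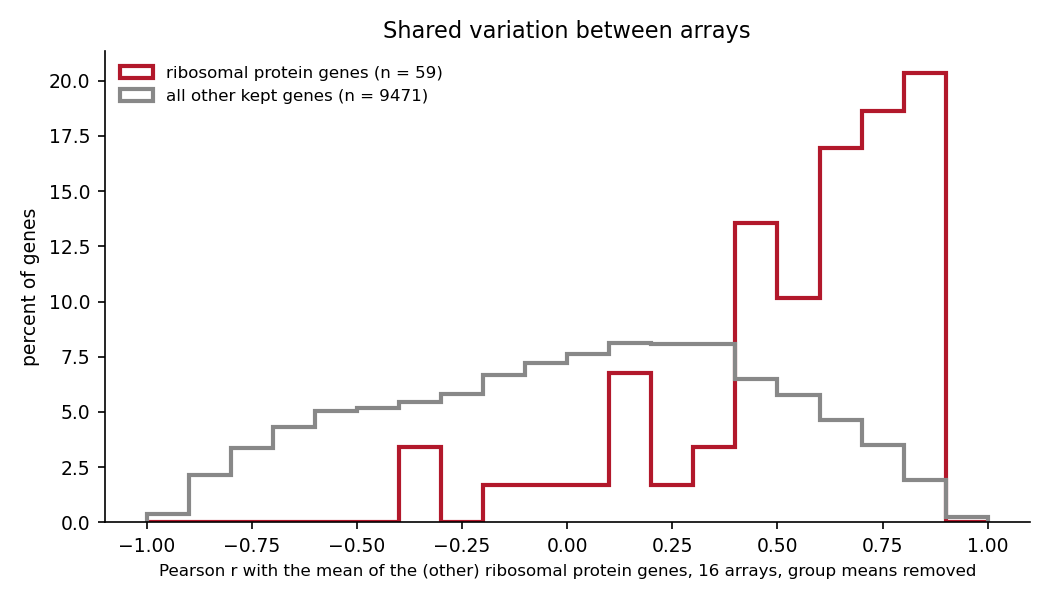
Distribution of Pearson correlations over 16 arrays, group means removed, with the mean of the (other) ribosomal protein genes, for 59 ribosomal protein genes (red) and 9471 other kept genes (grey), as a percent of each set per bin of 0.1. The red curve is centred at 0.620 and the grey one at 0.056, with 4 ribosomal protein genes below 0.

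The rest of the translation machinery was read from 4 lists, with fasting averaged over genotypes, where 4.31% of all genes were called and the median over all genes was -0.0032. The assembly list, factors that make and process ribosomal RNA and join it to proteins, held 26 kept genes of 36, of which 0 were called higher and 3 lower (median -0.046). Pes1, needed to mature the large subunit, read 8.70, 8.52, 8.62 and 8.68 in fasted AgRP-/- mice, against 8.98, 8.91, 8.95 and 8.97 in fed AgRP-/- mice, and 8.85, 8.52, 8.67 and 8.58 in fasted AgRP+/- mice, against 8.96, 8.83, 8.89 and 8.82 in fed AgRP+/- mice. It fell by 0.27 (SE 0.056, limma adjusted p = 0.00938), without overlap in AgRP-/- mice and with 1 fasted array among the fed ones in AgRP+/- mice. Ncl, the nucleolar protein nucleolin, fell by 0.20 (SE 0.050, adjusted p = 0.0294) and Ltv1, an export factor of the small subunit, fell by 0.35 (SE 0.093, adjusted p = 0.0397). Pes1 kept its call without any 1 array. Ncl lost it without AgRP-/- fasted 1, AgRP-/- fed 3 or 4, AgRP+/- fasted 2 or AgRP+/- fed 1. Ltv1 kept it only without AgRP-/- fasted 2 or 4, AgRP-/- fed 1 or 2, or AgRP+/- fed 4.

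The translation control list of nutrient and stress signalling held 21 kept genes of 30, with 1 called higher and 0 lower (median 0.12), a share near that over all genes. Sesn1, a sestrin that restrains the growth kinase mTOR, read 10.17, 10.14, 10.15 and 9.99 in fasted AgRP-/- mice, against 9.76, 9.76, 9.84 and 9.78 in fed AgRP-/- mice, and 10.22, 10.06, 10.06 and 10.29 in fasted AgRP+/- mice, against 9.91, 10.02, 9.86 and 9.52 in fed AgRP+/- mice. The groups did not overlap in either genotype, it rose by 0.33 (SE 0.063, limma adjusted p = 0.00543), and no single omitted array ended the call. Eif2ak1, a stress kinase of initiation, had 0.19 (adjusted p = 0.0548). Of the initiation factors 20 of 29 were kept, with 1 called higher and 0 lower (median 0.027), again near the share over all genes. Eif5, which drives GTP hydrolysis when the start codon is met, rose by 0.15 (SE 0.040, adjusted p = 0.0353), a call lost without 11 of the 16 arrays (all but AgRP-/- fasted 3, AgRP-/- fed 1 and 4, AgRP+/- fasted 4 and AgRP+/- fed 2), and Eif6, which keeps subunits apart, had 0.12 (adjusted p = 0.244). Of 24 other messenger RNAs with a terminal pyrimidine run, 17 were kept and 0 called (median 0.046), Nap1l1 having -0.27 (adjusted p = 0.0657) and Eif4a2 -0.21 (adjusted p = 0.112). Sesn1, Ncl, Nap1l1 and Eif4a2 had 2 kept probes each and Eif5 had 3, of which only the brightest is given here.

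The 5 genes called in these lists were also fitted with each covariate, and all their SEs were then wider. The part of the covariates in these calls was not tested beyond the fits. Most calls over all kept probes were lost too: 572 with no covariate, 33 with the dopamine covariate and 176 with the Actb difference. With the dopamine covariate all 5 calls were lost in limma: Pes1 changed by -0.34 (SE 0.082, adjusted p = 0.0734), Ltv1 by -0.53 (SE 0.13, adjusted p = 0.0789), Ncl by -0.21 (SE 0.076, adjusted p = 0.261), Sesn1 by 0.38 (SE 0.094, adjusted p = 0.0831) and Eif5 by 0.12 (SE 0.059, adjusted p = 0.427). With the Actb probe difference Sesn1 kept its call, at 0.35 (adjusted p = 0.0461), and the other 4 lost it. Their changes were then -0.26 for Pes1 (adjusted p = 0.0921), -0.32 for Ltv1 (adjusted p = 0.24), -0.18 for Ncl (adjusted p = 0.191) and 0.15 for Eif5 (adjusted p = 0.166). Without AgRP+/- fed 2 and AgRP-/- fed 1, Ncl changed by -0.21 (adjusted p = 0.0572) and Ltv1 by -0.37 (adjusted p = 0.0577), both no longer called, while Pes1, Sesn1 and Eif5 kept their calls.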

How the data were processed

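Hypothalamic RNA of 16 samples was profiled on Illumina bead arrays, 4 per group, with groups and replicate numbers taken from the sample titles. The authors deposited log2 intensities, 1 column per array, for 25697 probes. The submitters' processing notes name limma, while its version, the background correction and the normalization method are unstated there. Sorted columns of the deposited log2 values differed by at most 0.0345, so a shift common to most transcripts is not measurable. Detection p-values were not used here, and precision is limited by the number of arrays.

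Probes were named from the platform annotation, which gave 1 symbol for 23978 probes and none for 1719, and which can be old. Of 13662 kept probes, 12876 had a symbol. All kept probes were fitted by group means with limma 3.58.1 in R 4.3.3 (empirical Bayes with an intensity trend), and p-values were adjusted over them by the Benjamini-Hochberg method, with calls at 0.05. It was tested on simulated data. Changes are differences of log2 intensity with moderated SEs. Promoters came from RefSeq tables (GRCm38.p6), by gene identifier, with the symbol as a fallback for members only. No protein sequence was used here.

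Members and lists were chosen with earlier results of these data known. Named were called members, the 3 largest rises and falls per comparison, the 3 brightest and dimmest, reference, paralog and X-linked members, the 3 with the most unequal probes, and from each list the called genes and the 2 with the smallest p. Named outside that rule, after their values were seen, were Rpl30 and the members given for their correlations or promoters. Alternatives were other filters, normalization once more, centring, every kept probe, no trend, array weights, the compared groups alone, a replicate block, covariates, and leaving out arrays.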

Additional observations from a re-analysis of the deposited data

Results flagged for a closer look

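Of 132 sets of 4 arrays examined, 4 held an array whose gap to the nearest other array exceeded Dixon's critical share of the whole range, which chance gives in about 1 of 20. Rpl3l read 5.652 in AgRP-/- fed 2, against 5.116 to 5.156 in the other fed AgRP-/- arrays. Rpl22l1 read 5.852 in AgRP+/- fed 2, against 5.119 to 5.173 in the other fed AgRP+/- arrays. Rpl23a read 12.65 in AgRP-/- fasted 4, against 12.81 to 12.84 in the other fasted AgRP-/- arrays. Rpl36al read 12.77 in AgRP-/- fasted 2, against 12.93 to 12.96 in the other fasted AgRP-/- arrays.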

How the results depend on the processing

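The count of members called with fasting in AgRP-/- mice, 1 as reported, was 0 with no filter, with a filter at the 75th percentile of the table (7.733, which drops Rpl3l), with no intensity trend, with the Actb or the dopamine covariate, with the compared groups alone, without AgRP+/- fed 2 (highest in Gh and Prl) and without AgRP+/- fed 2 and AgRP-/- fed 1, a pair chosen after seeing the data. It was 2 (Rps2 and Rpl3l) with array weights, and 0 to 1 when 1 array was left out. Over all probes, the calls in AgRP-/- mice numbered 53 of 13662 as reported. They numbered 45 of 25697 with no filter and 38 of 6719 with the 75th percentile filter. Of 13662 probes, 29 were called with no trend, 83 with the Actb covariate, 1 with the dopamine covariate and 143 with array weights. The compared groups alone gave 87, leaving out AgRP+/- fed 2 gave 54 and leaving out the pair gave 39. The averaged count, 2 as reported, was 0 with no filter and with either covariate, 1 with the 75th percentile filter (Rps2), with no trend (Rpl3l) and without the pair of arrays (Rpl30), and 0 to 3 when 1 array was left out. Over all probes, the averaged calls numbered 572 as reported, 413 with no filter, 426 with the 75th percentile filter and 436 with no trend. They numbered 176 with the Actb covariate, 33 with the dopamine covariate and 440 without the pair. With 1 array left out they ran from 301 to 560, and in AgRP-/- mice from 27 to 73. The member counts thus changed along with the counts over all probes. The cause was not tested. The change of Rpl3l in AgRP-/- mice stayed between 0.64 and 0.90 over all alternatives that gave one. Every other comparison kept a count of 0 in the alternatives run, and the median changes moved by less than the spread between arrays. No call changed its direction. Same-numbered arrays of different groups correlated between -0.187 and 0.299 in their deviations, so the numbers are not taken as pairs. With the replicate block the counts were 1 in AgRP-/- mice and 3 averaged, Rpl28 being added, while 90 and 630 of all 13662 probes were called. Probes near the table median (Rpl3l, Rpsa, Rpl22l1) could not be separated from background.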

Other observations

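The 2 members called with fasting, Rps2 and Rpl3l, lie close together on chromosome 17, with 1 protein-coding gene between them in the RefSeq gene order, as was seen after the calls were made. That gene, Ndufb10, had an averaged fasting change of -0.058 (SE 0.14, limma adjusted p = 0.854). Of the next 3 protein-coding genes on the side of Rps2, Noxo1 had 0.025 (adjusted p = 0.935) and Tbl3 had -0.11 (adjusted p = 0.584), and on the side of Rpl3l, Msrb1 had 0.087 (adjusted p = 0.734). The others of those neighbours, Rnf151, Hs3st6 and Meiob, were not kept. With group means removed, Rps2 and Rpl3l correlated at -0.111 over the 16 arrays (Spearman -0.0735), given as a description.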
